A study of Homo sapiens with 12 samples.

Results

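The 9 genes described here are the secreted WNT inhibitors DKK1, FRZB, SFRP1 and SFRP2, the WNT target genes AXIN2, LEF1, NKD1 and SP5, and RSPO3, which encodes an R-spondin and is therefore an agonist of the pathway and not an inhibitor. They were chosen by name from the 60617 genes with a TPM value. All 9 also had a row among the 58575 usable rows of the count table, and 8 were among the 17747 genes with enough reads to be tested, SP5 being the exception.

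RNA-Seq had been performed on 12 libraries of 201B7, an established human iPSC line, with 3 libraries for each of 4 culture conditions and harvest on Day 5. Cond 1, the control, was kept in StemFit, a medium that maintains pluripotency. Cond 2 (Low nutrient) received StemFit that had been heated at 56 °C for 30 min, and Cond 3 (Differentiation) received, in place of StemFit, DMEM to which FBS had been added at 10% and MEM NEAA and GlutaMax at 1% each. Cond 4 (Physical stimulas) stayed in StemFit but was pipetted 20 times at passaging. The serum medium was given on the last day before harvest, whereas the heated medium was given at earlier medium changes, so that medium and length of exposure cannot be told apart between Cond 2 and Cond 3. The 3 libraries of a condition came from wells of separate plates of 1 line and are called technical replicates in the study, so the p-values below measure the spread between such wells. Total counts ranged from 16441148 to 21871503 per library, and the chi-square per gene between replicates, 3.99 to 9.42, was above sampling noise in every pair. As a check of the labelled cell type, all 12 listed markers of primed pluripotent cells had a mean of at least 1 TPM in each condition. The list left out POU5F1 (OCT4), for which the study's supplement gives low RNA-Seq values (labelled FPKM) in every condition. They lie below 1 in each Cond 2 replicate and only a little above 1 in all replicates of the other conditions, the control included. Whether these low entries reflect expression was not tested. By the adjusted p alone, 4 of the 12 rose and 6 fell in Cond 2, where 10.8% of all tested genes rose and 10.1% fell. In Cond 3, 6 rose and 4 fell, where 19.5% of all tested genes rose and 18.8% fell. The DEGs among them were NANOG, which fell by 1.09 in Cond 2 and by 2.16 in Cond 3 on the log2 scale, and TDGF1, which fell in Cond 2. Of all tested genes, 4.34% were DEGs in Cond 2 and 8.16% in Cond 3.

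In canonical WNT signaling, a WNT ligand binds a Frizzled receptor together with LRP5 or LRP6, β-catenin escapes its destruction complex, and the nuclear factors of the TCF/LEF family switch on target genes. SFRP proteins and FRZB carry a Frizzled-like domain and capture ligands outside the cell, DKK1 blocks the co-receptors, and R-spondins keep Frizzled receptors at the surface through LGR receptors. In primed human pluripotent cells, active WNT signaling is known to favor mesendoderm, and its inhibition is used to obtain anterior neuroectoderm.

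The secreted Frizzled-related genes and AXIN2 carried the differences between conditions. With differentially expressed genes (DEGs) defined by an adjusted p under 0.05 from edgeR's quasi-likelihood test and a fold change above 2, 1 of the 8 tested genes, FRZB, was a DEG in Cond 2 against Cond 1, where 4.34% of all tested genes were (1.84% higher and 2.5% lower). In Cond 3 against Cond 1 these were FRZB and SFRP2, 2 of 8, against 8.16% of all tested genes (4.85% higher and 3.31% lower). By the adjusted p alone, 2 of the 8 rose and 2 fell in Cond 2 (20.9% of all tested genes passed, 10.8% higher and 10.1% lower) and 3 rose and 1 fell in Cond 3 (38.4% of all tested genes passed, 19.5% higher and 18.8% lower). In Cond 4 against Cond 1, 0 of the 8 genes passed the test of edgeR or DESeq2, and 0 of 7 that of limma, where 0.0169% of all tested genes were DEGs and 0.0282% passed the adjusted p alone. None had an unadjusted p under 0.05 in edgeR or DESeq2, nor did any of the 7 that limma tested. The smallest unadjusted p in Cond 4 was 0.155 in edgeR, for SFRP2, and 0.0867 over both limma fits.

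**Figure D1:**
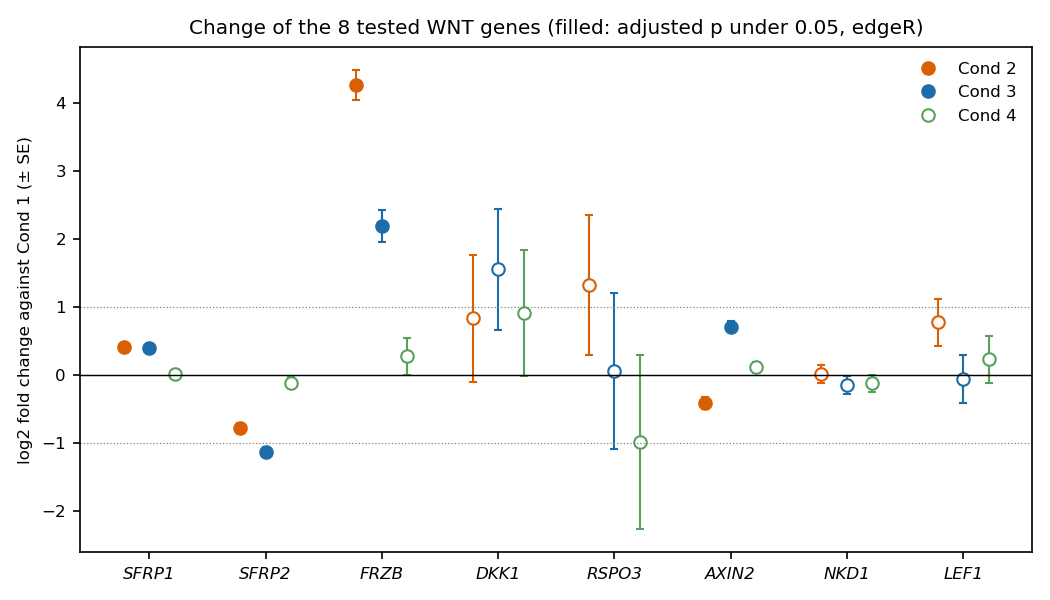
Log2 fold change against Cond 1 (y axis, edgeR, bars ± standard error) of the 8 tested genes (x axis) in Cond 2, Cond 3 and Cond 4. Filled circles have an adjusted p under 0.05 and dotted lines mark a fold change of 2, with FRZB at 4.26 in Cond 2 and 2.19 in Cond 3, AXIN2 on opposite sides of 0 in these conditions, and every Cond 4 circle open.

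FRZB (ENSG00000162998, chr2:182833275-182866637 of GRCh38, reverse strand) encodes SFRP3, a secreted protein first found in cartilage that captures WNT ligands. Its TPM was 3.44, 4.98 and 4.66 in the libraries of Cond 1 and 108, 95.3 and 61.8 in those of Cond 2. It was 22.8, 18.9 and 19.0 in Cond 3 and 3.69, 4.36 and 7.71 in Cond 4. The libraries of Cond 2 lay above all others and those of Cond 3 above both remaining conditions, whereas Cond 4 overlapped Cond 1. Of all tested genes, 35.7% did not overlap on TPM between Cond 2 and Cond 1, and 48.6% between Cond 3 and Cond 1. These shares stand beside each such separation below. FRZB was 19.1-fold higher in Cond 2 than in Cond 1 (log2 fold change 4.26, standard error 0.221, adjusted p = 2.07e-12, edgeR) and 4.56-fold higher in Cond 3 (2.19, standard error 0.230, adjusted p = 9.94e-08, edgeR). Between the treated conditions it was 4.20-fold lower in Cond 3 than in Cond 2 (adjusted p = 7.11e-09, edgeR). For Cond 4 the log2 fold change was 0.27 with a 95% interval from -0.35 to 0.90 (adjusted p = 0.922, edgeR), and it was -0.12 without replicate 3 of Cond 4, the library at 7.71 TPM.

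The summed level of neuroectoderm markers differed in the same conditions as FRZB. The summed TPM of the 8 listed markers ranged from 21.9 to 36.0 in Cond 1, from 470 to 764 in Cond 2, from 59.2 to 78.5 in Cond 3 and from 28.7 to 50.7 in Cond 4. Of the 7 tested, 5 were DEGs with higher expression in Cond 2, beside 1.84% of all tested genes. None of the 8 was listed at 0 in a condition, although SOX1 (0.259 TPM) and PAX6 (0.225 TPM) stayed low in Cond 2. This list and the surface ectoderm list hold genes that earlier results of these data had shown to change, so their counts and sums are a description only. In Cond 3 against Cond 1, LHX5 and HESX1 rose (log2 fold changes 2.01 and 0.79) and SIX6 fell (-3.58, adjusted p = 0.0101, edgeR), while SIX3 and RAX had 0.14 and -0.86 and did not pass. Surface ectoderm markers summed to between 0.705 and 2.17 TPM in Cond 1 and between 14.4 and 54.1 TPM in Cond 2, with TP63 at 0 in both. In Cond 3 the sums of surface ectoderm markers, 1.35 to 2.89 TPM, overlapped those of Cond 1. The part of these cells in the FRZB result was not tested, and in bulk RNA a change in the number of cells of a type and one in the RNA per cell cannot be told apart. Over the 12 libraries, the genes whose pattern was most like that of FRZB were LIX1, LHX5 and FEZF1-AS1, with a root mean square difference of 0.40, 0.44 and 0.47 between centered log2(TPM + 1) values. LHX5, a homeobox gene of the anterior neural plate, is itself on the neuroectoderm list and had a mean of 7.93 TPM in Cond 1, 262 TPM in Cond 2 and 32.3 TPM in Cond 3.

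**Figure D2:**
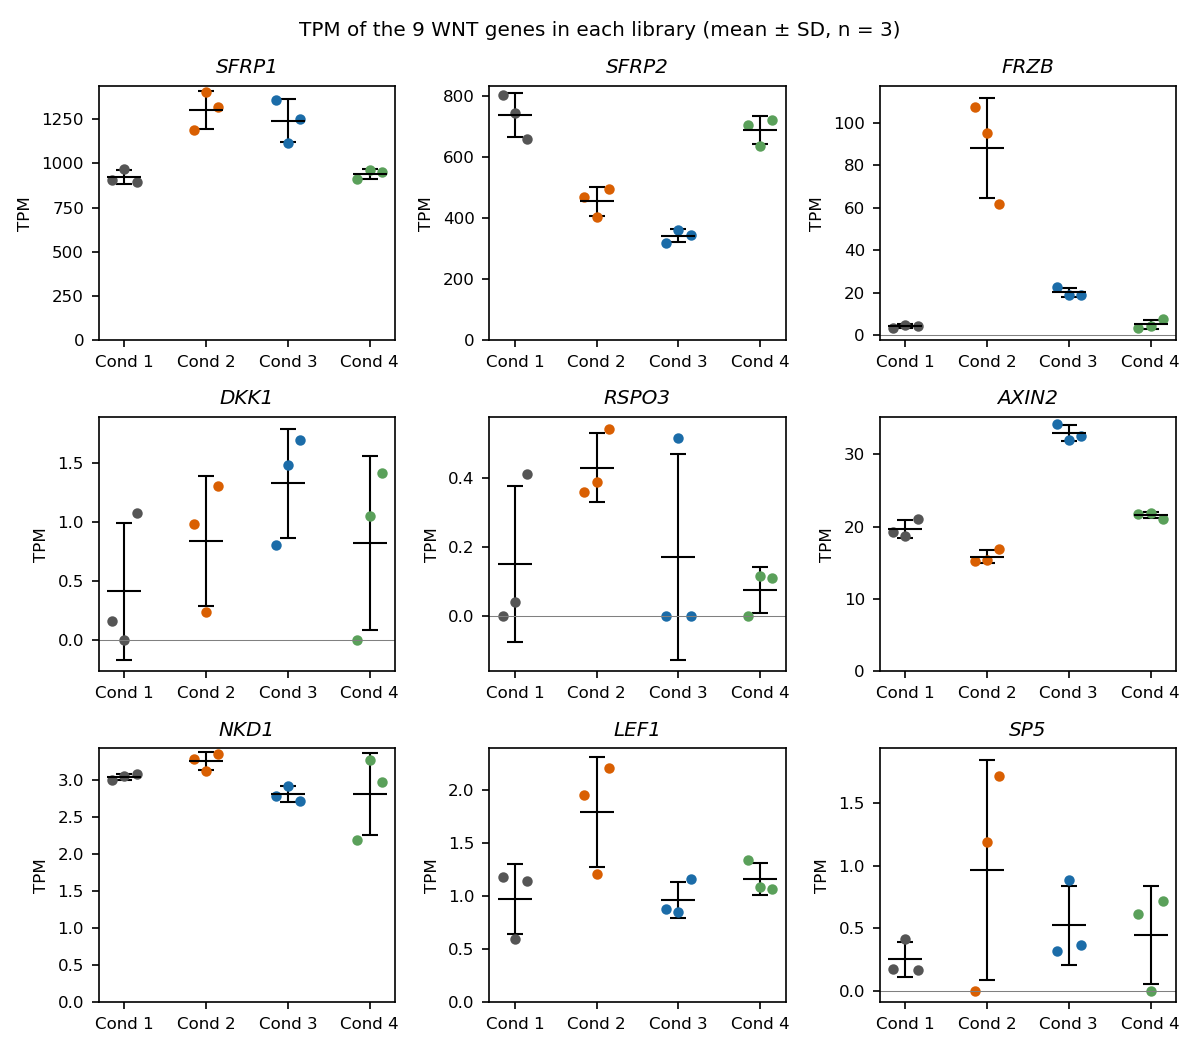
TPM (y axis, from 0 except where error bars cross it) of each of the 9 genes in each library (circles) by condition (x axis), with the mean (dash) and SD (bars, n = 3). FRZB stands between 61.8 and 108 TPM in Cond 2, AXIN2 is highest in Cond 3 at 32.0 to 34.2 TPM, and the circles of DKK1, RSPO3 and SP5 are scattered close to 0.

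SFRP1 (ENSG00000104332, chr8:41261962-41309473, reverse strand) was the most abundant of the 9 genes per length, at ranks 65 to 115 among all genes in the 12 libraries. It encodes a secreted WNT binding protein. The TPM of SFRP1 was 904, 967 and 893 in Cond 1, 1189, 1401 and 1320.4 in Cond 2, 1360.2, 1115 and 1249.7 in Cond 3, and 911, 964 and 951 in Cond 4. All 6 libraries of Cond 2 and Cond 3 lay above all 6 of Cond 1 and Cond 4. Separation from Cond 1 on TPM was common, at 35.7% of all tested genes in Cond 2 and 48.6% in Cond 3. The increase was modest in fold, 1.33-fold in Cond 2 (log2 fold change 0.41, standard error 0.057, adjusted p = 9.31e-06, edgeR) and 1.32-fold in Cond 3 (0.40, adjusted p = 6.56e-06, edgeR). On the TPM scale it was the largest gain of the family, from 921 ± 40.0 (SD, n = 3) in Cond 1 to 1304 ± 107 (SD, n = 3) in Cond 2. The difference between Cond 3 and Cond 2 was -0.01 on the log2 scale with a 95% interval from -0.14 to 0.12, and that between Cond 4 and Cond 1 was 0.02 with an interval from -0.11 to 0.15.

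SFRP2 (ENSG00000145423, chr4:153780591-153789083, reverse strand) moved the other way. The SFRP2 protein belongs to the same subgroup as SFRP1, and its TPM was 804, 745 and 661 in Cond 1, 469, 403 and 496 in Cond 2, 319, 362 and 347 in Cond 3, and 705, 636 and 723 in Cond 4. The levels of SFRP2 in Cond 3 lay below those of Cond 2, these lay below those of Cond 4, and Cond 4 overlapped Cond 1. SFRP2 was 1.71-fold lower in Cond 2 (log2 fold change -0.78, standard error 0.076, adjusted p = 6.73e-08, edgeR) and 2.19-fold lower in Cond 3 (-1.13, standard error 0.077, adjusted p = 1.05e-10, edgeR). The step from Cond 2 to Cond 3 was -0.35 on the log2 scale (adjusted p = 0.0008, edgeR). The genes with the pattern most like that of SFRP2 were TES, KRT18 and VLDLR (root mean square difference 0.081, 0.11 and 0.11), and those most like SFRP1 were SEPT3, NT5DC2 and ZBTB33 (0.064, 0.066 and 0.067).

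With SFRP1 rising and SFRP2 falling, the balance among SFRP1, SFRP2 and FRZB shifted toward SFRP1. The family members SFRP5 and SFRP4 are left out of the sums and ratios below, SFRP4 having 0 to 7 reads per library. SFRP5 ranged from 9.35 to 14.6 TPM in Cond 1 and from 25.9 to 32.7 TPM in Cond 2, without overlap. Its Cond 3 range, 13.2 to 27.4 TPM, overlapped that of the control. The summed TPM of SFRP1, SFRP2 and FRZB was 1662 ± 89.7 (SD, n = 3) in Cond 1, 1848 ± 71.7 in Cond 2, 1604 ± 104 in Cond 3 and 1635 ± 40.4 in Cond 4. Sums in Cond 2 (1766 to 1899) lay above those of Cond 1 (1559 to 1717), while those of Cond 3 and Cond 4 overlapped Cond 1. Between Cond 2 and Cond 1, 35.7% of all tested genes did not overlap on TPM. The median log2 fold change over all genes in Cond 2 against Cond 1 was 0.069 in limma on log2(TPM + 1). After TMM normalization in edgeR it was 0.0002. The sums were not tested on that scale. The ratio of SFRP1 TPM to SFRP2 TPM was 1.26 ± 0.119 (SD, n = 3) in Cond 1, 2.89 ± 0.512 in Cond 2, 3.65 ± 0.593 in Cond 3 and 1.37 ± 0.123 in Cond 4. Every ratio in Cond 2 (2.54 to 3.48) and Cond 3 (3.08 to 4.26) was above every ratio in Cond 1 (1.12 to 1.35), with an exact two-sided permutation p of 0.1 for each, the smallest that 3 against 3 allows. Between Cond 2 and Cond 3 the ratios overlapped (exact permutation p = 0.2). Despite its fold change, FRZB held 4.80% ± 1.41 (SD, n = 3) of the summed TPM in Cond 2 and 0.263% ± 0.054 in Cond 1.

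**Figure D3:**
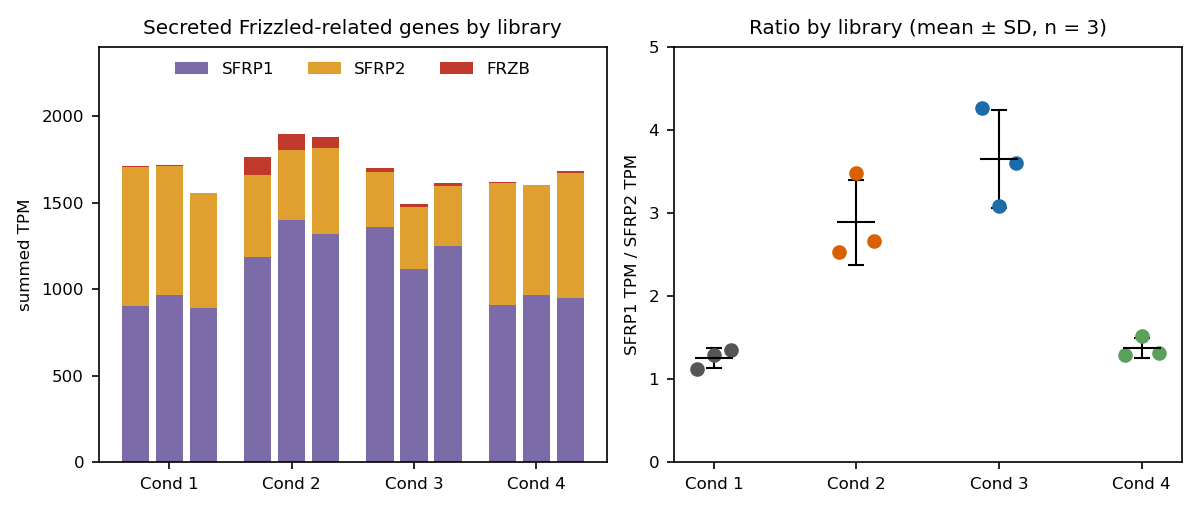
Left, TPM of SFRP1, SFRP2 and FRZB stacked for each library (y axis, summed TPM from 0), with libraries grouped by condition (x axis). Right, the ratio of SFRP1 TPM to SFRP2 TPM in each library (circles), with the mean (dash) and SD (bars, n = 3), which is below 1.6 in all libraries of Cond 1 and Cond 4 and above 2.5 in all libraries of Cond 2 and Cond 3.

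The promoter of FRZB is shown because this gene changed most, and that of SFRP2 because it was the other DEG against Cond 1. Each run is the 250 bases before the RefSeq start site (GRCh38.p14), written 5′ to 3′ on the strand of the gene, at chr2:182866638-182866887 (minus strand) for FRZB and chr4:153789084-153789333 (minus strand) for SFRP2. Neither holds CTTTGAT or CTTTGAA, core sequences of TCF/LEF binding, on either strand.
FRZB: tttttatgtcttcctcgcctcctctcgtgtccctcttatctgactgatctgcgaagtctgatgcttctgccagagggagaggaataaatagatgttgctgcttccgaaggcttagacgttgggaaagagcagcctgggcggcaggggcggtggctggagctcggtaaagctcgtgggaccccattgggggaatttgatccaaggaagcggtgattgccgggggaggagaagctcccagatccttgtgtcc
SFRP2: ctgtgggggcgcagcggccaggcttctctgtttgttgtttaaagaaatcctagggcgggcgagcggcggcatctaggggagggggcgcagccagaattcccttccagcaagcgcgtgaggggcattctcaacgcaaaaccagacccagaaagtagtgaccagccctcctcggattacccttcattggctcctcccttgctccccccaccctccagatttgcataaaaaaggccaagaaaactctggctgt

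DKK1 (ENSG00000107984, chr10:52314281-52318042, forward strand) encodes Dickkopf-1, which binds LRP5 and LRP6 and is also a target gene of the pathway. It was counted with 2, 0 and 14 reads in Cond 1, 11, 3 and 14 reads in Cond 2, 11, 18 and 20 reads in Cond 3, and 0, 12 and 17 reads in Cond 4. The read sums were 16 in Cond 1 (exact Poisson 95% interval 9.15 to 26.0) and 49 in Cond 3 (36.3 to 64.8), intervals that cover counting error alone. All pairs of conditions overlapped in TPM. In Cond 3 the log2 fold change of DKK1 against Cond 1 was 1.55 with a 95% interval from -0.49 to 3.60 (adjusted p = 0.179, edgeR), and without replicate 3 of Cond 1 it was 3.75 (adjusted p = 0.0245, edgeR), the change of sides resting on 1 library with 14 reads. Cond 2 gave 0.83 and Cond 4 gave 0.91, with standard errors of 0.928 and 0.924. AC004221.1, ANXA1 and ANP32D were most like DKK1 in pattern (root mean square difference 0.27, 0.27 and 0.28).

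RSPO3 (ENSG00000146374, chr6:127118671-127199481, forward strand) encodes R-spondin 3, a ligand of the LGR receptors. It had 0, 1 and 12 reads in Cond 1, 9, 11 and 13 reads in Cond 2, 0, 14 and 0 reads in Cond 3, and 0, 3 and 3 reads in Cond 4. The 3 libraries of Cond 2 were even, while in Cond 1 and Cond 3 nearly all reads came from 1 library. No comparison of RSPO3 passed the test, and the log2 fold change in Cond 2 against Cond 1 was 1.32 with a 95% interval from -1.06 to 3.70 (adjusted p = 0.419, edgeR). Cond 3 against Cond 2 passed when replicate 2 of Cond 3, the library with 14 reads, was left out (adjusted p = 0.0131, edgeR), which leaves Cond 3 at 0 reads.

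The spread between replicates of these low genes was wider than that of most genes with as few reads. The variance of the counts within a condition, divided by their mean and averaged over conditions, was 5.87 for DKK1 and 6.52 for RSPO3. The median over the 2547 genes with a mean count of 5 to 12 was 2.41, and 95.9% of these genes had a lower value than DKK1 and 97.2% a lower value than RSPO3. For SP5 the ratio was 3.55, above 76.8% of them.

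AXIN2 (ENSG00000168646, chr17:65528563-65561648, reverse strand) encodes a scaffold of the β-catenin destruction complex and is a widely used target gene, which feeds back on the pathway. Its TPM was 19.3, 18.8 and 21.1 in Cond 1, 15.3, 15.4 and 16.9 in Cond 2, 34.2, 32.0 and 32.6 in Cond 3, and 21.8, 21.9 and 21.1 in Cond 4. Cond 2 was below all other libraries, Cond 3 was above all others, and Cond 1 and Cond 4 overlapped. AXIN2 fell 1.32-fold in Cond 2 (log2 fold change -0.41, standard error 0.087, adjusted p = 0.00137, edgeR) and rose 1.63-fold in Cond 3 (0.71, standard error 0.084, adjusted p = 5.2e-07, edgeR). The direct comparison of Cond 3 with Cond 2 gave a 2.16-fold difference (log2 fold change 1.11, 95% interval 0.92 to 1.31, adjusted p = 6.68e-10, edgeR). In that comparison 2 of the 8 genes were DEGs, AXIN2 higher and FRZB lower in Cond 3, where 8.77% of all tested genes were (5.76% higher and 3.01% lower), and SFRP2 also passed by the adjusted p alone (38.2% of all tested genes, 19.0% higher and 19.2% lower). Each library held 403 to 1096 reads of AXIN2. Of the exonic bases of AXIN2, 25.3% are shared with ENSG00000266076 on the same strand, a gene at no more than 0.113 TPM in any library.

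Markers of other cell types did not all stay level beside AXIN2. Mesendoderm markers summed to between 1.38 and 3.02 TPM in Cond 1 and between 2.18 and 6.05 TPM in Cond 3, which overlap. The sums of Cond 2 (1.92 to 4.63 TPM) and Cond 4 (1.83 to 4.81 TPM) overlapped both. FOXA2 was at 0 in all conditions and SOX17 in all but Cond 1. TBXT, the gene for brachyury, had a mean of 0.0806 TPM in Cond 1 (0 to 3 reads per library) and 1.12 TPM in Cond 3 (11 to 20 reads). Outside Cond 3 no library exceeded 9 reads, so TBXT had enough reads to be tested only through Cond 3. Its adjusted p of 0.00336 (edgeR) against Cond 1 is therefore not independent of that selection. Of the 8 listed mesendoderm markers 2 were tested, and the other, MIXL1, did not pass (log2 fold change 0.21). The 8 listed fibroblast or mesenchyme markers summed to between 424 and 457 TPM in Cond 1, 266 and 314 TPM in Cond 2, and 587 and 624 TPM in Cond 3, with DCN at 0 in all of these. The members of that list differed in direction, since COL1A1 and COL1A2 rose in Cond 3 (COL1A1 by 0.80 on the log2 scale) while THY1 fell by 1.56 in Cond 3 and fell by 1.31 in Cond 2 on that scale, and PDGFRB and COL3A1 did not pass. Their part in the AXIN2 result was not tested. The genes most like AXIN2 over the 12 libraries were BCL11A, MYOZ3 and RHOBTB2 (root mean square difference 0.078, 0.085 and 0.097).

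NKD1 and LEF1, the other tested target genes, passed the edgeR test in none of the 4 comparisons. At an unadjusted p under 0.05 in edgeR, LEF1 differed in Cond 2 against Cond 1 and in Cond 3 against Cond 2, and NKD1 in none. NKD1 (ENSG00000140807, chr16:50548396-50649249, forward strand) encodes Naked cuticle 1, which binds Dishevelled and restrains the pathway. Its TPM was 3.00, 3.05 and 3.08 in Cond 1, 3.28, 3.13 and 3.36 in Cond 2, 2.78, 2.92 and 2.71 in Cond 3, and 2.19, 3.28 and 2.97 in Cond 4. On TPM the libraries of Cond 2 lay above and those of Cond 3 below Cond 1, a separation that 35.7% and 48.6% of all tested genes showed in either direction. After TMM normalization the log2 fold change of NKD1 was 0.01 in Cond 2 (95% interval -0.29 to 0.31, adjusted p = 0.97, edgeR) and -0.14 in Cond 3 (95% interval -0.45 to 0.16, adjusted p = 0.416, edgeR). The value of AXIN2 in Cond 3, 0.71, lies outside the interval of NKD1 but inside that of LEF1, -0.87 to 0.75. The genes most like NKD1 were ABHD17B, R3HDM4 and LIPE (root mean square difference 0.074, 0.079 and 0.079).

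LEF1 (ENSG00000138795, chr4:108047545-108168956, reverse strand), a nuclear factor that acts with β-catenin and is itself a target, had 15 to 57 reads per library. The TPM of LEF1 was 1.19, 0.593 and 1.15 in Cond 1, 1.96, 1.21 and 2.21 in Cond 2, 0.883, 0.852 and 1.16 in Cond 3, and 1.34, 1.09 and 1.07 in Cond 4. Cond 2 lay above Cond 1 and Cond 3 without overlap, by a narrow margin in replicate 2, but overlapped Cond 4. Between Cond 2 and Cond 1, 35.7% of all tested genes did not overlap on TPM. LEF1 in Cond 2 differed from Cond 1 by 0.77 on the log2 scale (standard error 0.339, adjusted p = 0.116, edgeR), and Cond 3 against Cond 2 gave -0.83 (adjusted p = 0.0575, edgeR). The latter passed without replicate 2 of Cond 2, at -1.06 (adjusted p = 0.0269, edgeR). In Cond 3 against Cond 1 the value was -0.06 with a 95% interval from -0.87 to 0.75. ADAMTS17, ZNF300 and MBD6 were most like LEF1 (0.14 each).

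SP5 (ENSG00000204335, chr2:170715337-170718078, forward strand) encodes a zinc finger repressor induced by WNT signaling in many tissues. It had 2, 4 and 2 reads in Cond 1, 0, 14 and 17 reads in Cond 2, 4, 10 and 4 reads in Cond 3, and 6, 0 and 8 reads in Cond 4. The 31 reads of Cond 2 came from 2 of its 3 libraries. SP5 did not pass the filter on low counts. Without this filter the log2 difference of Cond 2 from Cond 1 was 1.82 (adjusted p = 0.224, edgeR). A difference in SP5 was not detectable at this depth.

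The promoters of SP5 and DKK1 are shown because they were the windows that held a TCF/LEF core among the 6 members with a RefSeq window (DKK1, FRZB, SFRP2, LEF1, SP5 and RSPO3). The windows are chr2:170715087-170715336 for SP5 and chr10:52314031-52314280 for DKK1, both on the plus strand of GRCh38.p14, and capitals mark CTTTGAT or CTTTGAA, or their reverse complements. SP5 holds 3 matches, beginning 148, 109 and 84 bases before the start site, and DKK1 holds 1, beginning 95 bases before it. Of 35116 promoter windows of this length, 5.94% hold at least 1 match and 7 windows hold 3 or more.
SP5: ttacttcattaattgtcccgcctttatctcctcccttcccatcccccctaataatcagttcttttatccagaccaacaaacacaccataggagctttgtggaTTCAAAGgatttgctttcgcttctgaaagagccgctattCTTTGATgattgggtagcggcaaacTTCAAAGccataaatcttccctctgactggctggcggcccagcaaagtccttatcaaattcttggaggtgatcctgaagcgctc
DKK1: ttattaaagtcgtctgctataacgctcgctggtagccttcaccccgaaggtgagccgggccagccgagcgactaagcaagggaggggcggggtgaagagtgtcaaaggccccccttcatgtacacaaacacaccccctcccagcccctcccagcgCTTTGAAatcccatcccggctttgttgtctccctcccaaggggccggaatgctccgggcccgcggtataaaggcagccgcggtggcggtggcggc
A match is a description of letters, and both genes had 20 reads or fewer in every library. AXIN2, NKD1 and SFRP1 had no matched window.

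The rest of the pathway was followed with 87 further genes in 7 lists, of which 68 were tested. In Cond 2 against Cond 1, 26 of the 68 rose and 4 fell by the adjusted p alone, and 8 and 2 of these were DEGs. In Cond 3 against Cond 1, 31 rose and 13 fell, and 11 and 1 were DEGs. The 11 include WNT8A and WNT10B, which had enough reads to be tested only with their Cond 3 libraries. Of all tested genes, 20.9% and 38.4% passed the adjusted p alone in these comparisons, and 4.34% and 8.16% were DEGs. These DEGs were 1.84% higher and 2.5% lower in Cond 2, and 4.85% higher and 3.31% lower in Cond 3. The median log2 fold change of the 68 genes was 0.21 in Cond 2 and 0.19 in Cond 3, the latter also with WNT8A set to its count ratio, where that of all tested genes was 0.00 and -0.01. In Cond 4 against Cond 1, 0 of the 68 passed the edgeR test or those of DESeq2 and limma, while 4 of the 68 had an unadjusted p under 0.05 in edgeR and in DESeq2, and 3 of 65 in limma.

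More receptors rose than fell in both media. Of 14 tested receptors and co-receptors, 8 rose and 1 fell in Cond 2, and 9 rose and 1 fell in Cond 3, where 20.9% and 38.4% of all tested genes passed. FZD5 had 69.0 ± 0.536 TPM (SD, n = 3) in Cond 1 and 284 ± 29.6 in Cond 2, a log2 fold change of 1.96 (adjusted p = 3.21e-13, edgeR), and 106 ± 18.4 TPM in Cond 3. FZD8 reached 70.9 ± 11.8 TPM in Cond 2 and 69.5 ± 1.02 in Cond 3 from 25.6 ± 0.889 TPM in Cond 1, with log2 fold changes of 1.38 and 1.41. FZD4 was the receptor that fell in each, by 0.75 and 0.42 on the log2 scale. LRP6 was listed at 0 reads in all 12 libraries, with 0.172% of its 31-base words also on alternate sequences of the assembly. As the counting settings are not stated, this entry of 0 may not reflect expression. LRP5 had a mean of 49.6 to 65.3 TPM.

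Ligands differed between the media, with 5 of 11 tested higher and 2 lower in Cond 3 than in Cond 2 (38.2% of all tested genes passed the adjusted p alone). Against Cond 1, in Cond 3, 5 rose and 2 fell, while in Cond 2, 1 rose and 1 fell (38.4% and 20.9% of all tested genes passed). WNT8A, among the higher ligands of Cond 3 in both comparisons, had enough reads to be tested only through Cond 3. WNT10B, among those higher than in Cond 1, needed its Cond 3 reads as well. Their part in these counts is therefore not independent of that selection. WNT5A, a ligand best known for β-catenin-independent signaling, had 3.31 ± 0.912 TPM (SD, n = 3) in Cond 1, 3.65 ± 0.270 in Cond 2 and 12.5 ± 1.83 in Cond 3, and WNT4 had 1.70 ± 0.836, 2.90 ± 0.344 and 11.8 ± 2.90 TPM. Both exceeded their Cond 2 level in Cond 3, by 1.83 and 2.09 on the log2 scale (adjusted p = 3.42e-08 and 1.91e-06, edgeR), as did WNT2B by 1.86. WNT8A was counted with 46 reads in Cond 3, 2 in Cond 1 and 0 in Cond 2, a ratio of 21.5 to Cond 1 (exact 95% interval 5.63 to 183, counting error alone) and at least 4.99-fold higher than in Cond 2, with 3 reads per library as the floor. WNT10B had 0 to 4 reads per library in Cond 1, 8 to 16 in Cond 2 and 16 to 29 in Cond 3. WNT8B fell by 2.77 on the log2 scale in Cond 3 (adjusted p = 0.00151, edgeR) and WNT5B by 2.51 in Cond 2 (adjusted p = 5.27e-05, edgeR). WNT3, WNT9B and WNT10A were listed at 0 in all libraries, and 93.0% and 98.0% of the 31-base words of WNT3 and WNT9B occur on alternate sequences, whose part in these zeros was not tested.

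Inhibitors outside the 4 chosen ones also moved. Of 11 tested secreted or surface inhibitors, 3 rose and 1 fell in Cond 2, and 7 rose and 1 fell in Cond 3 (20.9% and 38.4% of all tested genes passed). SHISA2 and SHISA3, which hold back Frizzled maturation, both rose in Cond 2 and moved in opposite directions in Cond 3. SHISA2 rose to 89.6 ± 16.8 TPM (SD, n = 3) in Cond 2 from 32.0 ± 3.60 in Cond 1 (log2 fold change 1.41, adjusted p = 6.64e-08, edgeR) and fell by 0.41 on the log2 scale in Cond 3, to 24.4 ± 5.37 TPM. SHISA3 had 12.5 ± 0.862 TPM in Cond 1, 25.1 ± 4.39 in Cond 2 and 60.2 ± 9.47 in Cond 3 (log2 fold change 2.24, adjusted p = 6.79e-11, edgeR). DKK3 had 18.4 ± 0.446 TPM in Cond 1 and 27.6 ± 2.39 in Cond 3, above every DKK1 value on this per-length scale. KREMEN2, a DKK1 receptor, fell by 0.85 in Cond 2 and rose by 0.77 in Cond 3 on the log2 scale. DKK4 was listed at 0 in all libraries.

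In the R-spondin module, RSPO1 was the DEG. From 0.399 ± 0.319 TPM (SD, n = 3) in Cond 1 it rose to 4.09 ± 1.24 in Cond 2 and 1.66 ± 0.247 in Cond 3, at log2 fold changes of 3.27 (adjusted p = 2.53e-05, edgeR) and 2.04 (adjusted p = 0.00281, edgeR). Its receptor LGR4 rose by 0.71 and 0.62 on the log2 scale. Of 6 tested genes of the module, 3 rose in each medium, beside 10.8% of all tested genes in Cond 2 and 19.5% in Cond 3.

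Among relay genes and nuclear partners, APC2 and SP8 were the DEGs in Cond 2, and there was none in Cond 3 by edgeR. CTNNB1, which encodes β-catenin, rose from 148 ± 2.65 TPM (SD, n = 3) in Cond 1 to 184 ± 10.2 in Cond 2 and 186 ± 6.79 in Cond 3, at log2 fold changes of 0.22 and 0.30 (adjusted p = 0.000807 and 1.41e-05, edgeR). TCF7L1, the TCF/LEF factor that represses targets in pluripotent cells, had 216 ± 1.90 TPM in Cond 1, 246 ± 13.9 in Cond 2 and 158 ± 1.61 in Cond 3. TCF7L1 fell by 0.48 on the log2 scale in Cond 3 (adjusted p = 4.53e-07, edgeR). APC2, of the destruction complex, rose by 1.08 in Cond 2 and fell by 0.52 in Cond 3, and SP8, a relative of SP5, fell by 1.18 in Cond 2. Of the 12 tested relay genes 6 rose in Cond 2 while 3 rose and 3 fell in Cond 3, and of the 12 nuclear partners 5 rose and 1 fell in Cond 2 while 4 rose and 4 fell in Cond 3, beside 20.9% and 38.4% of all tested genes that passed in either direction. The ligand secretion genes WLS and PORCN both fell in Cond 3, by 0.94 and 0.40 on the log2 scale.

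**Figure D4:**
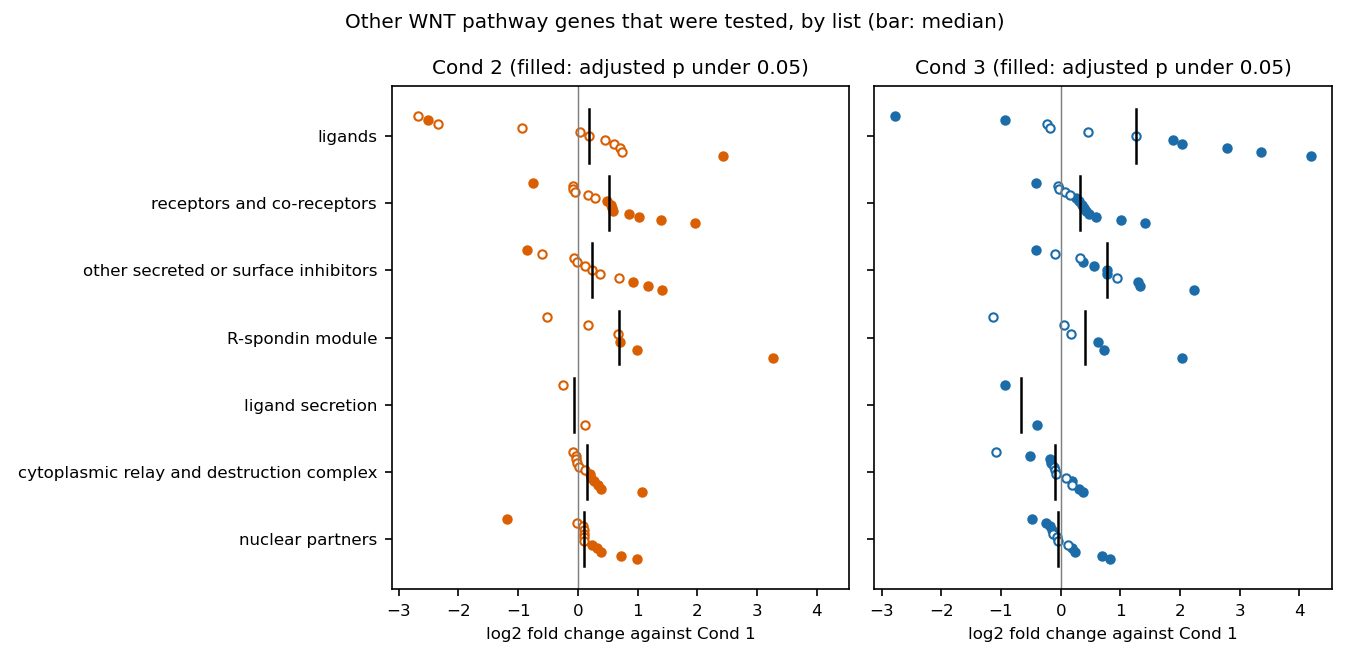
Log2 fold change against Cond 1 (x axis, edgeR) of the 68 other tested pathway genes in Cond 2 (left) and Cond 3 (right), by list (y axis). Each circle is 1 gene, filled where the adjusted p was under 0.05, and the black bar is the median of the list, which for the ligands lies at 0.18 in Cond 2 and 1.27 in Cond 3.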

How the data were processed

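RNA-Seq of 12 libraries, 3 per condition, was analysed. According to the methods, the authors trimmed reads with cutadapt 4.1 and fastp 0.20.1, aligned them to GRCh38 with HISAT2 2.1.0 and counted them on genes with featureCounts. How strand and multiple matches were handled was not given in the sources used here. The authors deposited raw counts per gene and TPM values, which are those counts per gene length scaled to a common total. In the count table, 5 incomplete lines were dropped, and 2042 TPM genes without a count row were not tested.

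TMM-normalized counts went into edgeR 4.0.16 (quasi-likelihood, filterByExpr with a minimum count of 10, R 4.3.3) in one fit over 12 libraries and 17747 genes, with Benjamini-Hochberg adjustment over all genes. The comparisons were Cond 2, Cond 3 and Cond 4 against Cond 1, which share the Cond 1 libraries, and Cond 3 against Cond 2. Intervals of log2 fold changes are at 95%, from the standard error and the t quantile at 8 residual degrees of freedom. Exact permutation tests were two-sided. Precision was set by 16441148 to 21871503 counts per library (median 18752394.5). Alternatives were DESeq2, limma 3.58.1 on log2(TPM + 1) and log2(TPM + 0.1), upper-quartile normalization, no filter, 6 libraries alone, the replicate number as a block, the adjusted p alone and each library left out. The code was tested on simulated data.

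The 9 genes, 7 pathway lists and 5 marker lists were chosen with earlier results of these data known. The neuroectoderm and surface ectoderm lists hold genes that such results had shown to change. Pathway genes named were, per comparison, among DEGs with a mean of at least 1 TPM in either condition, up to 4 with the largest increase and 4 with the largest decrease, with the rest of those in the text picked after seeing their values. The 3 genes most like a member had the smallest root mean square difference in centered log2(TPM + 1) among genes with a mean of at least 1 TPM. WNT7B, KREMEN1, ZNRF3 and CSNK1E lack a count row and were not used here. Promoters came from a RefSeq table (GRCh38.p14), with 6 of 9 members matched, and gene coordinates from GENCODE release 44.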

Additional observations from a re-analysis of the deposited data

How the results depend on the processing

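Over 32 log2 fold changes of the 8 tested genes, 404 alternatives gave 379 values with the same direction and side of the threshold, 22 of opposite sign, 0 that lost the threshold and 3 that newly passed it. The calls of FRZB, SFRP1, SFRP2 and AXIN2 against Cond 1 in Cond 2 and Cond 3 held under all of these. The values that changed sign were close to 0 or rested on few reads. With upper-quartile normalization, NKD1 in Cond 2 against Cond 1 was -0.0036 and SFRP1 in Cond 3 against Cond 2 was 0.0232. LEF1 in Cond 3 against Cond 1 was 0.0039 in limma on log2(TPM + 1) and 0.0291 on log2(TPM + 0.1). Without single libraries, values against Cond 1 ranged in Cond 2 from -0.0161 to 0.0484 for NKD1, in Cond 3 from -0.3059 to 0.0908 for LEF1, -5.1366 to 2.8071 for RSPO3 and 1.0289 to 3.7549 for DKK1, and in Cond 4 from -0.1206 to 0.4659 for FRZB, -0.0183 to 0.3787 for LEF1, -1.5638 to 1.7541 for RSPO3, -0.001 to 0.0516 for SFRP1 and -0.2496 to 0.0246 for NKD1. In Cond 3 against Cond 2 it ranged from -1.0576 to -0.6649 for LEF1, -6.4602 to -0.6543 for RSPO3 and -0.0769 to 0.0597 for SFRP1. Fitted values of RSPO3 beyond 4 in size stand against libraries at 0 reads and are no bound. By the adjusted p alone, 4 of the 8 genes passed in Cond 2 and 4 in Cond 3, with 30 and 44 of the 68 pathway genes and 3701 and 6811 of all genes, against 770 and 1449 DEGs. In Cond 4 it gave 5 of all genes, and in Cond 3 against Cond 2 38 pathway genes and 6777 of all genes. Limma on log2(TPM + 1) gave 497 DEGs in Cond 2, 861 in Cond 3 and 960 in Cond 3 against Cond 2, with 6 and 8 pathway genes in the last 2 of these, since its filter and pseudocount leave fewer genes and smaller folds. For Cond 4 both limma fits gave 1 DEG and the fit without a filter 14, against 3.

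Same-numbered libraries correlated weakly, with correlations of their deviations from the group means between -0.0387 and 0.0773, none of 18 above 0.1, and the same number highest in 12 of 18, a hint from the data that the labels do not settle. The replicate number as a block gave 755 DEGs in Cond 2, 1439 in Cond 3, 3 in Cond 4 and 1545 in Cond 3 against Cond 2, and changed no call of the 8 genes.

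Depth limits DKK1, RSPO3 and SP5, with 0 to 20 reads per library, and LEF1, with 15 to 57. For DKK1, RSPO3 and SP5 the spread between replicates beyond that of most genes with as few reads limits the values too. All libraries come from 1 line in 1 study, which calls the triplicates technical replicates in its results and iterations of the experiment in its methods.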
